A study of Homo sapiens with 12 samples.

Results

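The RNA of 10 cytokine and chemokine genes was followed in gingival and skin keratinocytes with and without hydrogen peroxide. The genes were taken by name from the deposited count table, and all 10 were found among its 58735 genes: IL1A, IL1B, IL1RN, IL36G, TNF, IL6, CXCL1, CXCL2, CXCL3 and CXCL8. TIGK is an immortalized line of human gingival keratinocytes and HaCaT an immortalized line of human skin keratinocytes. Each line was either left untreated or exposed to 5 mM H2O2 for 3 h, with 3 libraries of polyadenylated RNA in each of the 4 groups. All groups shared the same keratinocyte medium, which holds pituitary extract, TGF-α, epinephrine and hydrocortisone, a glucocorticoid. Each tissue was represented by 1 line, so oral against skin origin cannot be told apart from the differences between these particular lines. Replicates are named as separate samples, but the sources do not say whether they came from separate cultures on separate days, and p-values measure the spread between these samples alone.

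Keratinocytes are a source of the cytokines that open a skin or mucosal inflammation. IL1A is stored in the cell and acts as an alarm signal when cells are damaged, IL1B is made as a precursor that caspase-1 cuts, and IL1RN encodes the antagonist that occupies the same receptor without signalling. CXCL1, CXCL2, CXCL3 and CXCL8 encode chemokines that draw neutrophils through the receptors CXCR1 and CXCR2. TNF and IL6 are general inflammatory cytokines, and IL36G encodes an epithelial member of the IL-1 family. Most of these genes are known targets of the transcription factor NF-κB, and their transcripts are short-lived because RNA-binding proteins mark them for decay.

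The genes fall into 2 clusters and 2 single genes, given here with the identifiers and GRCh38 positions of the count table. On chromosome 2 lie IL1A (ENSG00000115008, 112773915 to 112784590, minus strand), IL1B (ENSG00000125538, 112829751 to 112836903, minus strand), IL36G (ENSG00000136688, 112973203 to 112985665, plus strand) and IL1RN (ENSG00000136689, 113107214 to 113134016, plus strand). On chromosome 4 lie CXCL8 (ENSG00000169429, 73740506 to 73743716, plus strand), CXCL1 (ENSG00000163739, 73869393 to 73871242, plus strand), CXCL3 (ENSG00000163734, 74036589 to 74038807, minus strand) and CXCL2 (ENSG00000081041, 74097035 to 74099293, minus strand). IL6 (ENSG00000136244) spans 22725884 to 22732002 on the plus strand of chromosome 7, and TNF (ENSG00000232810) spans 31575567 to 31578336 on the plus strand of chromosome 6.

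The neutrophil chemokines are shown by sequence first, because 3 of them share nearly the same proximal promoter while their RNA behaved differently. The cluster spreads over 356.5 kb between the listed starts of CXCL8 and CXCL2. Below are the 150 bases before the RefSeq start of each (GRCh38.p14), 5′ to 3′ on the gene's own strand: chr4:73869243-73869392 for CXCL1, chr4:74099196-74099345 for CXCL2, chr4:74038690-74038839 for CXCL3 and chr4:73740419-73740568 for CXCL8. Capitals mark matches to GGNNTTTCC, an NF-κB type motif searched on both strands. For CXCL2, CXCL3 and CXCL8 the RefSeq start lies inside the extent given in the count table.
CXCL1: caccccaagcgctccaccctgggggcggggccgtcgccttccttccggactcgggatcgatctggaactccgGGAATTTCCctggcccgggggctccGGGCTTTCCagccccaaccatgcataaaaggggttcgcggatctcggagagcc
CXCL2: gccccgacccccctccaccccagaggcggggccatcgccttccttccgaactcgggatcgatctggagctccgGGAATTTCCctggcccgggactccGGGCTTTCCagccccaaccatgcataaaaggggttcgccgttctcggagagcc
CXCL3: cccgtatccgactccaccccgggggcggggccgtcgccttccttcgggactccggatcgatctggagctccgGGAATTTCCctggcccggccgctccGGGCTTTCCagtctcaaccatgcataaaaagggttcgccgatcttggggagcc
CXCL8: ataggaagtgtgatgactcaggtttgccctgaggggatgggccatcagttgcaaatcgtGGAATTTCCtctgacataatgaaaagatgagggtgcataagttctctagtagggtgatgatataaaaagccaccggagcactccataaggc
CXCL1 and CXCL2 were identical in 135 of 152 aligned columns (88.8%), CXCL1 and CXCL3 in 88.1%, and CXCL2 and CXCL3 in 86.3%. CXCL8 was identical to each of these in 44% to 46.8% of columns. CXCL1, CXCL2 and CXCL3 each held the same 2 matches, GGAATTTCC and GGGCTTTCC, the second at bases -53 to -45 in all 3 genes. CXCL8 held GGAATTTCC at bases -91 to -83 and, further upstream at bases -137 to -131, a match to TGANTCA, an AP-1 type motif. Within 250 bases before a start, the NF-κB type motif was found for 6 of the 10 genes (the 4 chemokines, IL6 and IL1RN) and in 5.48% of all 35116 RefSeq windows. The AP-1 type motif was found for CXCL8, IL1A and IL1RN, and in 6.57% of all windows. The 10 genes had 13 windows among these, and a gene counted if any of its windows matched. The counts of genes and the shares of windows are therefore not like for like. No match overlapped another. A match describes the letters and does not show a bound site. Only these forms of the motifs were searched, so a gene without a match may hold another form. In the longest GENCODE protein-coding transcript of each of the 4 genes, 0 stretches of 100 bases were found in another of them, and of the 50-base stretches of CXCL2, 5.63% were found in CXCL1 and 5.07% in CXCL3.

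A normalized count is the read count of a gene after TMM scaling, at the mean library size. Library totals lay between 30426401 and 49034244 counts, and counts of replicates spread beyond sampling noise (4.36 to 13.8 for chi-square divided by its degrees of freedom in 10 of the 12 pairs, and 18.3 and 26.9 for the pairs that hold treated HaCaT replicate 3). RNA was taken from whole cultures, in which fewer cells making a transcript and less of it per cell cannot be told apart. The labelled cell type was checked by its markers. The summed level of 10 keratinocyte markers lay between 1651000 and 2090000 normalized counts in every library, against 310.7 to 937.5 for 7 fibroblast markers and 1.17 to 126.5 for 8 leukocyte markers, with COL1A2 and FCGR3A at 0 throughout. The leukocyte markers were higher in TIGK, at 96.2 to 126.5, than in HaCaT, at 1.17 to 21.4, of which CD14 accounted for a mean of 100.5 in untreated TIGK. The fibroblast markers were higher in TIGK as well, at 799.7 to 937.5 against 310.7 to 419.9, and the 3 of them tested (COL1A1, DCN and PDGFRB) were all called lower in untreated HaCaT. The part of these markers in the differences between the lines was not tested.

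Levels of different genes were compared per kb of the gene length given in the table. In untreated TIGK, IL1A led with 702 ± 61.6 normalized counts per kb (SD, n = 3), followed by CXCL8 at 613 ± 155 and CXCL1 at 495 ± 82.4. CXCL8 overlapped both IL1A and CXCL1 in its libraries and cannot be ranked against either, while IL1A lay above CXCL1 in every library. IL1RN (387 ± 9.38), CXCL2 (263 ± 30.7), IL1B (164 ± 25.8), CXCL3 (72.5 ± 23.2) and IL36G (23.0 ± 8.28) each lay apart from the next. In untreated HaCaT the antagonist came first, with IL1RN at 1348 ± 145 normalized counts per kb, ahead of IL1A at 486 ± 49.3 and IL1B at 361 ± 12.1. The leading chemokine there was CXCL1 at 253 ± 40.5 per kb, with CXCL8 at 97.2 ± 2.70 and CXCL2 at 14.04 ± 5.48. After H2O2, IL1A led in both lines, at 1115 ± 66.7 per kb in TIGK and 980 ± 112 in HaCaT. The lead over IL1RN in treated HaCaT rests on the listed gene lengths. In normalized counts not divided by length, IL1RN was above IL1A in every treated HaCaT library. TNF and IL6 were low in all 4 groups, between 0.608 and 15.7 per kb on average, and after H2O2 the libraries of IL6 overlapped those of IL36G in both lines.

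**Figure D1:**
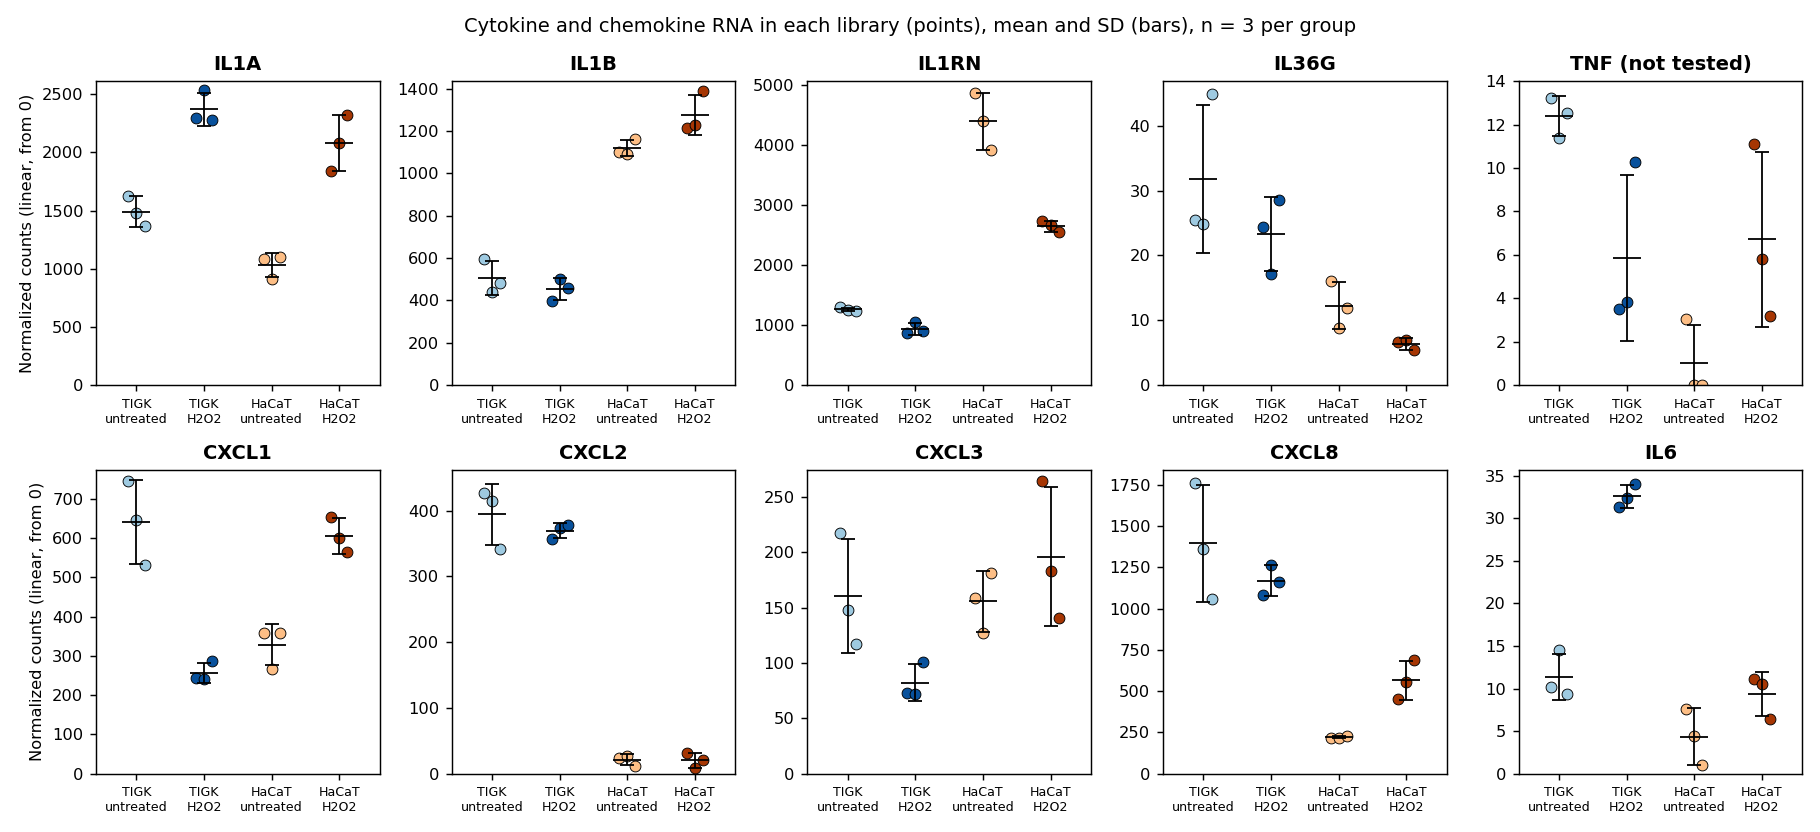
Normalized counts of the 10 genes on a linear axis from 0, with 1 panel per gene, 1 point per library, and bars for the mean and SD of 3 libraries per group. CXCL1 falls in TIGK and rises in HaCaT, IL1A rises and IL1RN falls in both lines, and CXCL2 is near 400 in TIGK and near 20 in HaCaT with or without H2O2.

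After H2O2, IL1A rose and IL1RN fell in both lines, while CXCL1 fell in TIGK and rose in HaCaT. In TIGK, 1 of the 9 tested genes was upregulated (IL1A) and 3 were downregulated (CXCL1, CXCL3 and IL1RN). In HaCaT, 3 were upregulated (IL1A, CXCL1 and CXCL8) and 1 was downregulated (IL1RN). Calls required an edgeR adjusted p under 0.01 over all 16618 genes tested. By that rule 23.2% of all genes were called in TIGK (10.2% higher and 12.9% lower) and 34.1% in HaCaT (18.9% higher and 15.2% lower, the 3135 higher calls becoming 2061 without treated HaCaT replicate 2). The median log2 fold change of the 9 genes was -0.25 in TIGK and 0.33 in HaCaT, beside 0.01 and 0.04 over all genes. TNF, with a mean raw count of 6.50, fell under the minimum mean of 10 and was not tested.

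IL1A, the alarm cytokine, was upregulated in both lines. Its normalized counts were 1628, 1477 and 1367 in untreated TIGK and 2296, 2532 and 2279 after H2O2, and 1087, 911.7 and 1099 in untreated HaCaT and 1844, 2081 and 2319 after H2O2. Treated and untreated libraries did not overlap in either line, as held for 51.1% of all genes in TIGK and 53.8% in HaCaT. The log2 fold change was 0.67 (SE 0.0902, adjusted p = 1.38e-05) in TIGK and 1.01 (SE 0.0920, adjusted p = 9.72e-08) in HaCaT. Untreated HaCaT had less IL1A RNA than untreated TIGK (log2 difference -0.53, SE 0.0923, adjusted p = 4.81e-05), while after H2O2 the lines overlapped (-0.19, SE 0.0893, adjusted p = 0.0707). Scaled by library totals alone, that latter difference was called (-0.27, adjusted p = 0.00927). The difference of the 2 responses, -0.34 (SE 0.128), did not pass the limit (adjusted p = 0.0942).

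IL1RN, the receptor antagonist, went the other way in both lines. It stood at 1294, 1244 and 1238 normalized counts in untreated TIGK and at 860.9, 1050 and 901.8 after H2O2, a log2 fold change of -0.42 (SE 0.0827, adjusted p = 5.81e-04). In HaCaT the counts went from 4859, 4391 and 3917 to 2731, 2658 and 2543, a log2 fold change of -0.73 (SE 0.0777, adjusted p = 6.82e-07). The groups did not overlap within either line, and the HaCaT libraries were above every TIGK library with and without H2O2, where 73.3% of all genes did not overlap between the untreated lines and 71.3% between the treated ones. The gap between the lines was 1.80 on the log2 scale before treatment (SE 0.0808, adjusted p = 2.68e-13) and 1.495 after it (SE 0.0819, adjusted p = 5.75e-12). The responses differed by 0.31 (SE 0.113), short of the limit (adjusted p = 0.0868).

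Because IL1A rose as IL1RN fell, the RNA of the antagonist gene lost ground to that of the agonist gene. Per kb, the ratio of IL1RN to IL1A was 0.518, 0.549 and 0.591 in the untreated TIGK libraries and 0.245, 0.270 and 0.258 after H2O2. In HaCaT it was 2.92, 3.14 and 2.33 before and 0.967, 0.833 and 0.715 after. The mean ratio thus went from 0.553 ± 0.0362 to 0.258 ± 0.0129 in TIGK and from 2.80 ± 0.422 to 0.838 ± 0.126 in HaCaT (SD, n = 3). Per kb, the antagonist RNA exceeded the IL1A RNA in every untreated HaCaT library and in none after H2O2, whereas in TIGK it was below IL1A in all 6 libraries. The crossing in HaCaT rests on the listed gene lengths of 3256 for IL1RN and 2124 for IL1A: in normalized counts not divided by length, IL1RN was still above IL1A in every treated HaCaT library. Against IL1B, the antagonist stayed ahead in all groups, with mean ratios of 2.40 ± 0.313 and 1.97 ± 0.0962 in TIGK and 3.74 ± 0.502 and 1.98 ± 0.210 in HaCaT. These ratios are of RNA, describe values whose parts were tested above, and were given no test of their own. The counts are per gene, so different transcripts of IL1RN or IL1A were not told apart.

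IL1B, the caspase-1 substrate, was not called in either response. It held 594.9, 439.6 and 484.0 normalized counts in untreated TIGK and 398.0, 501.5 and 459.2 after H2O2, with overlapping groups and a log2 fold change of -0.16 (SE 0.110, adjusted p = 0.283). In HaCaT it held 1100, 1094 and 1162 before and 1213, 1229 and 1387 after, a log2 fold change of 0.19 (SE 0.102, adjusted p = 0.136). The difference between the lines was clear at both times. HaCaT exceeded TIGK by 1.14 on the log2 scale untreated (SE 0.107, adjusted p = 1.41e-08) and by 1.49 after H2O2 (SE 0.107, adjusted p = 3.40e-10). IL1A and IL1B, neighbours on chromosome 2 with listed starts 55.84 kb apart, thus differed between the untreated lines in opposite directions.

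IL36G was rare in all groups, with 25.4, 24.9 and 45.0 normalized counts in untreated TIGK and 24.4, 17.1 and 28.5 after H2O2. HaCaT held 16.1, 8.84 and 11.9 before and 6.67, 7.00 and 5.34 after. Neither response was called, at log2 fold changes of -0.44 (SE 0.404, adjusted p = 0.428) in TIGK and -0.96 (SE 0.509, adjusted p = 0.13) in HaCaT. HaCaT was below TIGK after H2O2 (log2 difference -1.87, SE 0.484, adjusted p = 0.00212). Before treatment the difference of -1.34 only just passed (SE 0.427, adjusted p = 0.00931) and was lost on leaving out any 1 of 10 of the 12 libraries, at adjusted p up to 0.0712 without untreated TIGK replicate 3.

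**Figure D2:**
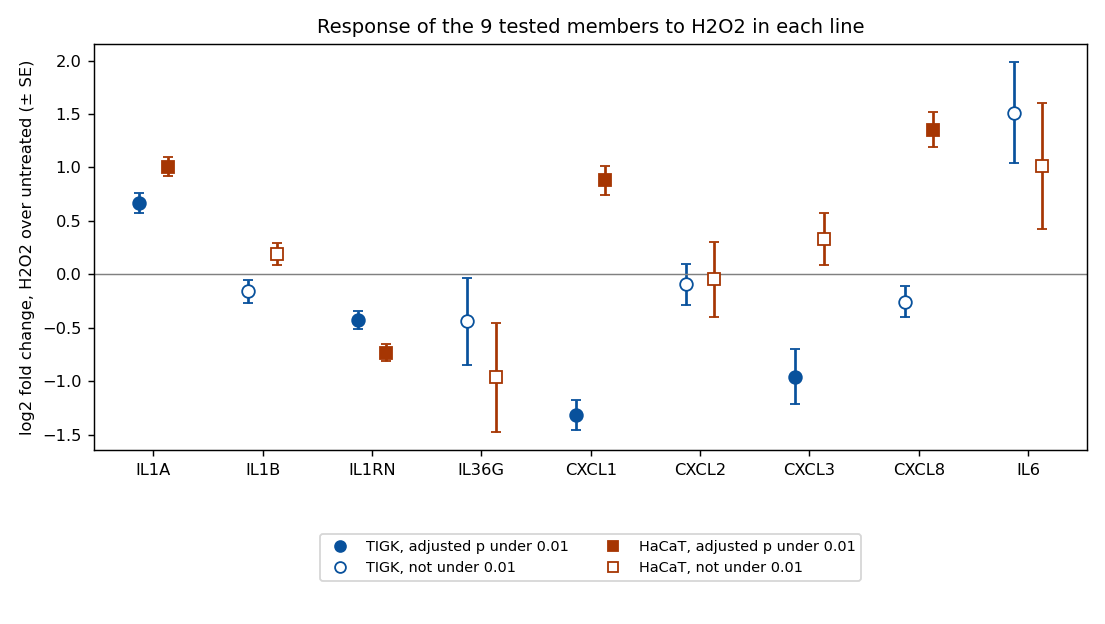
Log2 fold change of H2O2 over untreated (vertical axis, bars are SE of the fit, 3 libraries per group) for the 9 tested genes, with circles for TIGK and squares for HaCaT, filled where the edgeR adjusted p was under 0.01. CXCL1 is at -1.32 in TIGK and 0.88 in HaCaT, CXCL8 at -0.25 and 1.35, while IL1A and IL1RN lie on the same side of 0 in both lines.

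CXCL1, a neutrophil chemokine, responded in opposite directions in the lines. It fell in TIGK from 745.4, 645.9 and 532.1 normalized counts to 244.8, 239.8 and 285.8, and rose in HaCaT from 358.3, 267.4 and 358.4 to 654.2, 599.3 and 563.7. The groups did not overlap in either line. The log2 fold change was -1.32 in TIGK (SE 0.138, adjusted p = 6.87e-07) and 0.88 in HaCaT (SE 0.136, adjusted p = 4.39e-05). The difference of the responses, TIGK minus HaCaT, was -2.20 (SE 0.194, adjusted p = 5.01e-07), in a test that called 5.30% of all genes (2.32% higher and 2.98% lower) and 2 of the 9 tested here, CXCL1 and CXCL8. That background is itself unsure: its 385 higher calls became 704 without treated HaCaT replicate 1, and its 496 lower calls became 186 to 300 without any 1 of 6 libraries (untreated TIGK replicate 2, treated TIGK replicates 2 and 3, untreated HaCaT replicates 1 and 2, and treated HaCaT replicate 2). The order of the lines turned over: HaCaT was below TIGK before treatment (log2 difference -0.96, SE 0.135, adjusted p = 3.61e-06) and above it afterwards (1.23, SE 0.138, adjusted p = 1.92e-07).

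CXCL8, which encodes interleukin 8, rose in HaCaT from 218.5, 216.6 and 228.1 normalized counts to 452.8, 553.8 and 687.5. This was a log2 fold change of 1.35 (SE 0.167, adjusted p = 3.75e-06). In TIGK the counts were 1763, 1362 and 1059 before and 1083, 1266 and 1159 after, with overlapping groups and a log2 fold change of -0.25 (SE 0.145, adjusted p = 0.183). The responses differed by -1.61 (SE 0.221, adjusted p = 9.63e-05). Unlike CXCL1, CXCL8 stayed lower in HaCaT, by -2.66 on the log2 scale before treatment (SE 0.164, adjusted p = 3.29e-11) and by -1.05 after it (SE 0.152, adjusted p = 5.09e-06), so the gap between the lines narrowed without closing.

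CXCL2 separated the lines and was not called in either response. It stood at 427.1, 414.7 and 341.8 normalized counts in untreated TIGK and 357.4, 374.0 and 377.7 after H2O2, against 23.7, 27.6 and 11.9 in untreated HaCaT and 31.2, 9.33 and 20.3 after H2O2. Every TIGK library was above every HaCaT library, an 18.6-fold difference before treatment (log2 difference -4.22, SE 0.254, adjusted p = 2.30e-11) that was as wide after it (-4.17, SE 0.262, adjusted p = 4.34e-11). The log2 fold change with H2O2 was -0.09 (SE 0.191, adjusted p = 0.739) in TIGK and -0.05 (SE 0.348, adjusted p = 0.936) in HaCaT. With 8 to 31 reads per library in HaCaT, the SE there was the larger.

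CXCL3 fell in TIGK, as CXCL1 did, and was not called in HaCaT. In TIGK it went from 217.6, 148.3 and 117.1 to 73.1, 72.3 and 101.3 normalized counts, a log2 fold change of -0.96 (SE 0.257, adjusted p = 0.00706). In HaCaT it went from 158.9, 127.1 and 181.7 to 264.8, 183.0 and 140.9, where the groups overlapped (log2 fold change 0.33, SE 0.244, adjusted p = 0.287). The untreated lines overlapped as well (-0.04, SE 0.245, adjusted p = 0.883), and after H2O2 HaCaT was higher by 1.24 (SE 0.256, adjusted p = 2.71e-04). The difference of the responses was -1.29 (SE 0.354, adjusted p = 0.0232), past 0.05 but not 0.01. The fall in TIGK was lost without untreated TIGK replicate 1 (log2 fold change -0.68, adjusted p = 0.0551), without untreated TIGK replicate 2, without treated TIGK replicate 1 or 2 and without treated HaCaT replicate 2, at adjusted p of 0.0113 to 0.0395 for the latter 4, and with a replicate block (adjusted p = 0.0105).

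CXCL1 and CXCL2, identical in 88.8% of the promoter columns printed above, thus had unlike RNA levels. Both differed between the lines, while CXCL1 changed with H2O2 in both lines and CXCL2 was called in neither response. Their per kb ratio was 1.88 ± 0.126 in untreated TIGK and 0.804 ± 0.0675 after H2O2, with each treated library below each untreated one. In HaCaT it was 21.2 ± 12.3 and 43.6 ± 26.9, a wide spread beside few CXCL2 reads. CXCL1 and CXCL3 kept a closer ratio, between 3.61 ± 0.242 and 7.04 ± 1.03 over the 4 groups. Summed per kb, the 4 chemokines came to 1444 ± 288 normalized counts in untreated TIGK and 996 ± 51.7 after H2O2, and to 435 ± 49.8 and 818 ± 24.9 in HaCaT. TIGK exceeded HaCaT in every library at both times, but the lowest treated TIGK sum (936) was close to the highest treated HaCaT sum (844). CXCL8 made up 42.2% ± 2.30 of the sum in untreated TIGK and 51.6% ± 2.48 after H2O2. In HaCaT the leading part per kb was CXCL1, with 58.0% ± 2.91 untreated and 57.1% ± 3.33 after H2O2. The lead in treated HaCaT rests on the listed gene lengths of 1296 for CXCL1 and 2274 for CXCL8. In normalized counts not divided by length these genes overlapped there, and in replicate 3 CXCL8 (687.5) was above CXCL1 (563.7).

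**Figure D3:**
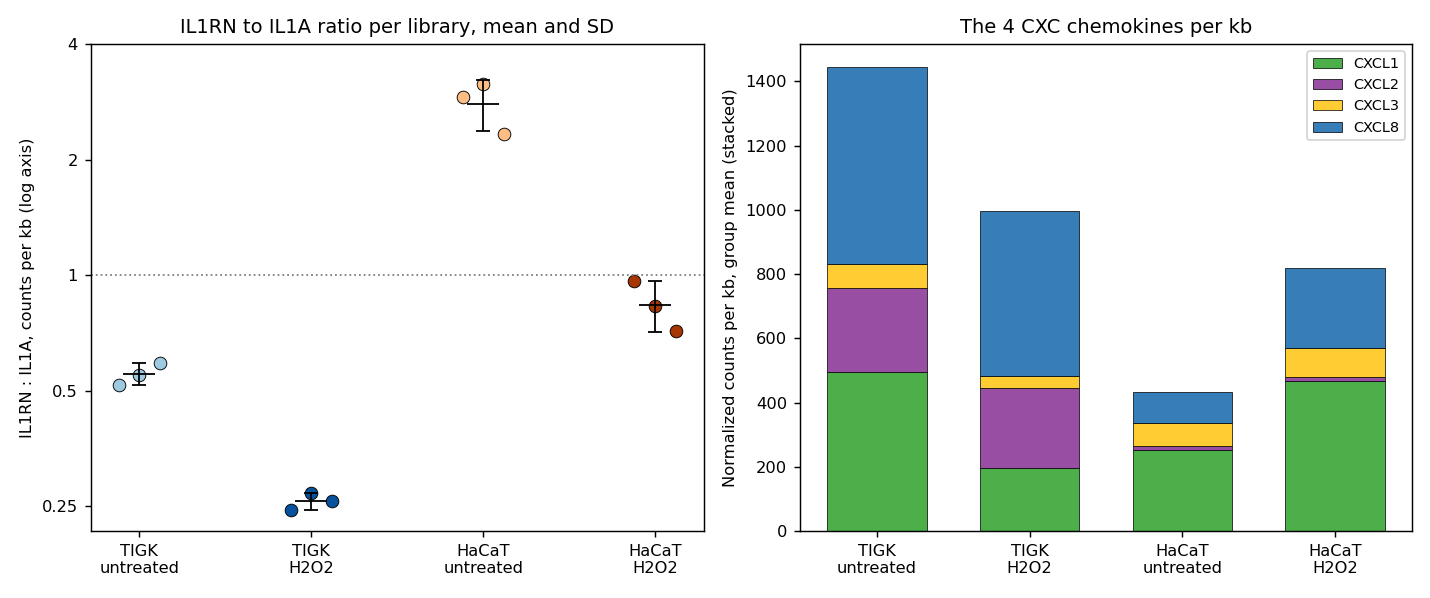
Left, the ratio of IL1RN to IL1A in normalized counts per kb on a log axis, 1 point per library with mean and SD, and a dotted line at equal levels. Right, group means of the 4 chemokines in normalized counts per kb, stacked on a linear axis from 0. The ratio drops in both lines, from above to below equality in HaCaT, and the chemokine sum falls from 1444 to 996 in TIGK and rises from 435 to 818 in HaCaT.

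IL6 and TNF were at the edge of detection. IL6 held 10.2, 14.5 and 9.41 normalized counts in untreated TIGK and 31.3, 32.4 and 34.04 after H2O2, groups that did not overlap. Its log2 fold change of 1.51 (SE 0.471) missed the limit (adjusted p = 0.0176). In HaCaT it held 7.64, 4.42 and 0.987 before and 11.1, 10.5 and 6.41 after (log2 fold change 1.02, SE 0.590, adjusted p = 0.169). HaCaT was below TIGK after H2O2 (-1.80, SE 0.487, adjusted p = 0.00306), a call lost without treated HaCaT replicate 3 (adjusted p = 0.0168), and untreated the difference of -1.30 (SE 0.570) did not pass (adjusted p = 0.0503). IL6 overlaps STEAP1B on the opposite strand over 1730 bases, and STEAP1B held 801 ± 38.0 normalized counts in untreated TIGK and 701 ± 28.3 after H2O2 but at most 0.764 in HaCaT. Whether the counting used strand is not given in the sources used here, so a comparison of IL6 between the lines is uncertain. STEAP1B itself was not called in TIGK after H2O2 (log2 fold change -0.19, edgeR adjusted p = 0.178). Reads in the shared bases were not counted apart, so their part in the IL6 counts was not tested.

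TNF reads were few in every library, with raw counts of 11 to 13 in untreated TIGK, 3 to 13 after H2O2, 0 to 4 in untreated HaCaT and 3 to 10 after H2O2. In normalized counts these were means of 12.4 ± 0.917, 5.86 ± 3.84, 1.02 ± 1.76 and 6.72 ± 4.04. Without the filter on low counts, over 33620 genes, untreated HaCaT was below untreated TIGK (log2 difference -3.25, adjusted p = 0.00414). Neither the response of TIGK (-0.999, adjusted p = 0.499) nor that of HaCaT (2.38, adjusted p = 0.0876) passed in that fit. At this depth a change of TNF was not detectable with confidence.

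Between the untreated lines, 2 of the 9 genes were higher in HaCaT (IL1RN and IL1B) and 5 lower (CXCL8, CXCL2, CXCL1, IL1A and IL36G), in a comparison that called 59.9% of all genes, 29.1% higher and 30.8% lower. After H2O2, 4 were higher in HaCaT (IL1RN, IL1B, CXCL1 and CXCL3) and 4 lower (CXCL8, CXCL2, IL36G and IL6), where 60.0% of all genes were called, 30.2% higher and 29.8% lower. These comparisons share libraries with the responses and add no separate evidence. With most genes called between the lines, the shares among these genes are not particular to them.

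Receptors of these cytokines were more often downregulated than upregulated after H2O2. Of 10 receptors tested, 6 fell and 0 rose in TIGK by edgeR (and 0 rose by DESeq2), where 1, SIGIRR, was higher at an unadjusted p under 0.05. Without untreated TIGK replicate 1, 1 receptor was called as higher in TIGK. Of the 6 that fell, CXCR1 and IL1RL2 both lost their calls without untreated TIGK replicate 2 or 3 or any treated TIGK replicate. Their adjusted p then rose up to 0.0446 for CXCR1 and 0.0385 for IL1RL2. In HaCaT 4 fell and 2 rose, and 1 rose without treated HaCaT replicate 2. Of all genes, 12.9% fell and 10.2% rose in TIGK, and 15.2% fell and 18.9% rose in HaCaT. The median of the receptors was -0.64 on the log2 scale for TIGK and -0.20 for HaCaT, beside 0.01 and 0.04 over all genes. IL1R1, the signalling receptor of IL1A and IL1B, fell from 566 ± 53.3 to 218 ± 17.6 normalized counts in TIGK (log2 fold change -1.38, SE 0.148, adjusted p = 9.81e-07) and from 99.1 ± 6.99 to 35.9 ± 10.8 in HaCaT (-1.47, SE 0.199, adjusted p = 1.12e-05). Its partner IL1RAP fell from 3545 ± 103 to 2513 ± 176 in TIGK and from 5105 ± 263 to 4091 ± 140 in HaCaT. So in both lines the agonist IL1A rose as the RNA of its receptor, of the partner and of the antagonist fell. The decoy receptor IL1R2 was not called, with 163 ± 16.5 and 110 ± 10.7 in TIGK and 278 ± 8.84 and 247 ± 54.4 in HaCaT.

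IL6R, which binds IL6, fell by 1.40 on the log2 scale in TIGK (SE 0.0805, adjusted p = 1.72e-10), from 2130 ± 74.2 to 807 ± 41.0 normalized counts. It fell by 1.47 in HaCaT (SE 0.0882, adjusted p = 4.11e-10), from 873 ± 73.0 to 316 ± 25.8. IL6ST, its signalling subunit, fell in both lines too, from 4199 ± 52.2 to 2567 ± 104 and from 3423 ± 53.0 to 2553 ± 105. SIGIRR, a negative regulator of IL-1 signalling, rose in HaCaT from 373 ± 17.0 to 581 ± 54.9 (log2 fold change 0.64, SE 0.138, adjusted p = 9.48e-04, and 0.0122 without treated HaCaT replicate 2) and stood at 124 ± 32.6 and 163 ± 4.05 in TIGK. IL1RL2, the IL-36 receptor, stood at 951 ± 39.0 and 747 ± 29.6 in TIGK, a fall that was lost without any 1 of 5 of the TIGK libraries (adjusted p up to 0.0385), and at 365 ± 21.8 and 342 ± 34.7 in HaCaT.

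The TNF receptors behaved differently from each other. TNFRSF1A, the receptor with a death domain, was not called in either response, with 4395 ± 72.5 and 4415 ± 163 normalized counts in TIGK and 3987 ± 30.4 and 4059 ± 183 in HaCaT. TNFRSF1B was found mainly in TIGK, at 267 ± 45.7 and 156 ± 20.8 there against 6.49 ± 4.99 and 24.9 ± 3.53 in HaCaT, a rise from 1 to 10 reads per library to 20 to 26 that was lost with edgeR on the HaCaT groups alone (adjusted p = 0.0252). Its untreated levels differed by -5.45 on the log2 scale (SE 0.360, adjusted p = 9.55e-11), and its responses differed by -2.81 (SE 0.512, adjusted p = 0.00136). The reverse held for CXCR1, a CXCL8 receptor, with 90.7 ± 8.86 and 77.3 ± 24.2 in HaCaT against 5.56 ± 5.26 in untreated TIGK and 0 in all 3 treated TIGK libraries. Its call as lower in TIGK rests on 0 to 10 reads per untreated library and was lost on leaving out any 1 of 9 of the libraries (adjusted p up to 0.0446). After H2O2 this was at least a 26.6-fold higher level in HaCaT, taking 3 counts per library as the floor. CXCR2 was not tested, with at most 6 reads in a library.

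**Figure D4:**
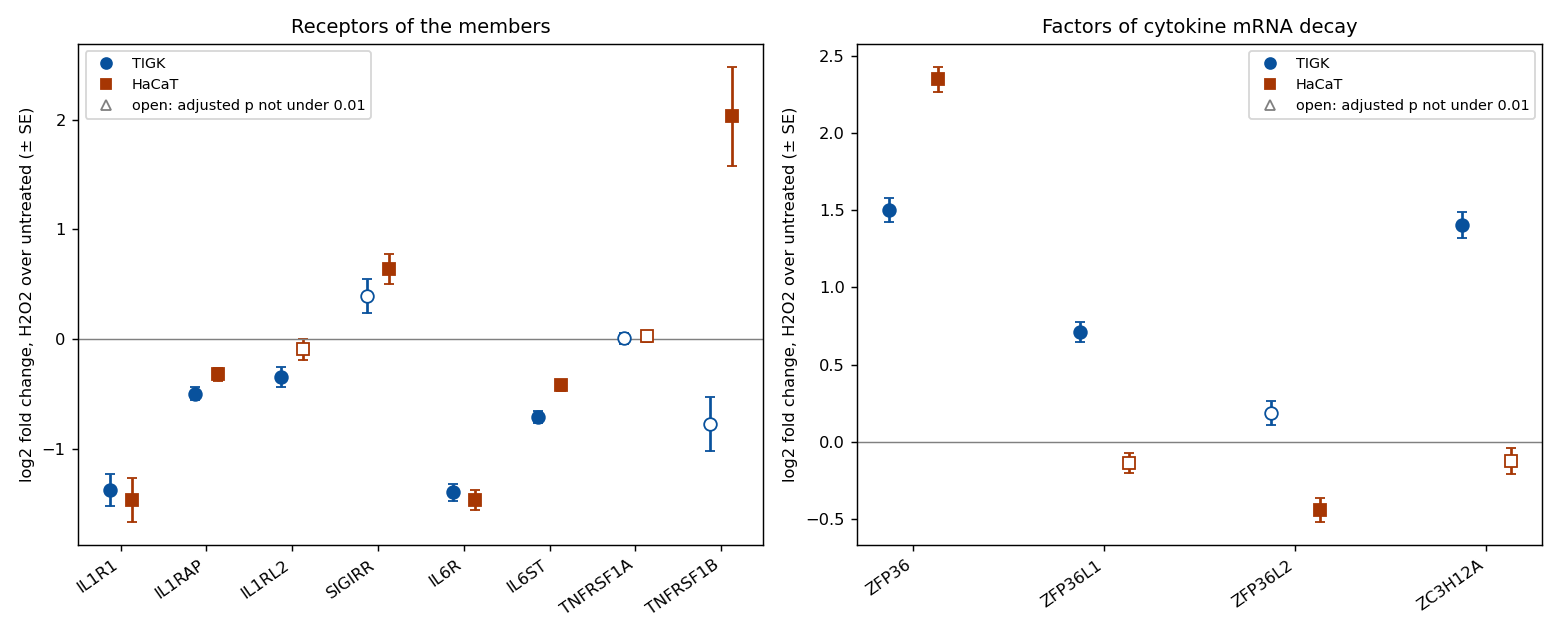
Log2 fold change of H2O2 over untreated (vertical axes, bars are SE of the fit, 3 libraries per group) for 8 receptors on the left and the 4 named decay factors whose responses differed on the right, with circles for TIGK, squares for HaCaT and open symbols where the adjusted p was not under 0.01. IL1R1 and IL6R lie near -1.4 in both lines, and ZC3H12A is at 1.40 in TIGK and -0.13 in HaCaT.

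Factors that set the lifetime of cytokine mRNA were compared next, most of them known to destabilize it and some, such as ELAVL1 and ARID5A, to stabilize it. Of 14 tested, 5 rose and 2 fell in TIGK, where 23.2% of all genes were called, and 4 rose and 5 fell in HaCaT, where 34.1% were. In TIGK, 3 rather than 5 rose without untreated replicate 1 or treated replicate 1, and 1 rather than 2 fell on leaving out any 1 of 9 of the libraries. The responses of 5 of them (ZC3H12A, ZFP36, ZFP36L1, ZFP36L2 and N4BP1) differed between the lines, beside 5.30% of all genes. ZC3H12A, which encodes the endonuclease Regnase-1, rose in TIGK from 665 ± 19.5 to 1761 ± 38.2 normalized counts (log2 fold change 1.40, SE 0.0843, adjusted p = 3.08e-10) and stood at 882 ± 72.8 and 809 ± 85.2 in HaCaT. The difference of its responses was 1.53 (SE 0.119, adjusted p = 1.05e-07). ZFP36, which encodes tristetraprolin, rose in both lines, from 2406 ± 115 to 6822 ± 469 in TIGK and from 1137 ± 79.3 to 5785 ± 655 in HaCaT. Its rise was larger in HaCaT, by a difference of -0.85 (TIGK minus HaCaT, SE 0.111, adjusted p = 5.80e-05). Its relatives ZFP36L1 and ZFP36L2 differed the other way, by 0.85 (SE 0.0919, adjusted p = 6.89e-06) and 0.63 (SE 0.109, adjusted p = 8.35e-04). ZFP36L1 rose in TIGK from 24160 ± 1538 to 39540 ± 779, and stood at 28150 ± 1574 and 25620 ± 2232 in HaCaT. ZFP36L2 fell in HaCaT from 12140 ± 824 to 8930 ± 1085, and stood at 7706 ± 552 and 8777 ± 255 in TIGK.

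Among the other IL-1 family genes, 5 of 8 were tested. In TIGK 1 rose and 0 fell (1 fell with DESeq2 on all libraries), and in HaCaT 1 rose and 2 fell. Of all genes, 23.2% were called in TIGK and 34.1% in HaCaT. IL18, an epithelial cytokine cut by caspase-1, rose in both lines, from 2898 ± 40.9 to 4339 ± 39.3 normalized counts in TIGK (log2 fold change 0.58, SE 0.0673, adjusted p = 2.27e-06) and from 3179 ± 172 to 4068 ± 453 in HaCaT (0.36, SE 0.0671, adjusted p = 3.03e-04). IL36RN, the antagonist of the IL-36 receptor, stood at 114 ± 15.9 and 173 ± 18.2 in TIGK and fell from 46.96 ± 16.03 to 11.96 ± 4.12 in HaCaT (-1.99, SE 0.336, adjusted p = 1.07e-04). Its responses differed by 2.59 (SE 0.413, adjusted p = 3.94e-04). IL18BP fell in HaCaT from 305.5 ± 35.25 to 199 ± 35.95 (-0.619, SE 0.1603, edgeR adjusted p = 0.00394). That call was lost on leaving out any 1 of 4 of the libraries (adjusted p up to 0.0249). In TIGK IL18BP stood at 294.9 ± 25.24 and 200.2 ± 37.59 and was not called. IL37, an anti-inflammatory member, was seen mainly in HaCaT, with 43.0 ± 5.68 and 48.5 ± 22.7 against 2.03 ± 3.52 in untreated TIGK and 0 in every treated TIGK library. CASP1, which encodes the enzyme that matures IL1B and IL18, rose in both lines, by 0.51 in TIGK (SE 0.0797, adjusted p = 6.81e-05) and 0.55 in HaCaT (SE 0.0853, adjusted p = 5.02e-05). It was 1 of 2 genes that rose and 2 that fell among 12 tested genes of IL-1 and TNF maturation in TIGK, and of 4 that rose and 1 that fell in HaCaT, where 23.2% and 34.1% of all genes were called. The 2 that fell in TIGK (ADAM10 and ADAM17) became 0 or 1 on leaving out any 1 of 11 of the libraries and 0 with the replicate block, and the 2 that rose there became 1 without treated TIGK replicate 1 or 2 and 4 without treated HaCaT replicate 1. In HaCaT, 2 rather than 4 rose without untreated replicate 2 or 3 or treated replicate 2, and 2 or 3 rather than 1 fell without any 1 of 6 libraries. The inflammasome sensor NLRP3 held 133 ± 13.7 and 106 ± 10.5 in TIGK and 2.44 ± 2.71 and 2.27 ± 2.33 in HaCaT. In contrast, NLRP1 was higher in untreated HaCaT by 2.37 on the log2 scale (SE 0.1427, edgeR adjusted p = 2.28e-11). PYCARD was higher there by 0.95 (SE 0.1375, adjusted p = 5.33e-06). Between the untreated lines, 3 of these 12 genes were higher in HaCaT and 8 lower, where 59.9% of all genes were called.

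Of 19 further chemokines, 7 were tested and 0 were called in either response by edgeR fitted to all 12 libraries. At an unadjusted p under 0.05, 1 was higher (CXCL14) and 1 lower (CCL20) in TIGK, and 3 were higher (CCL28, CXCL16 and PPBP) and 1 lower (CCL5) in HaCaT. DESeq2 on all libraries called 0 in TIGK and 1 as higher in HaCaT. Fitted to the groups compared alone, edgeR and DESeq2 each called 1 higher and 1 lower in TIGK and 1 higher in HaCaT. Between the untreated lines all 7 were called, where 59.9% of all genes were, and the call of PPBP was lost without untreated TIGK replicate 2 or 3 or untreated HaCaT replicate 1 (adjusted p up to 0.0445). CXCL14, which is abundant in resting epithelium, held 6558 ± 382 and 8315 ± 614 normalized counts in TIGK against 705 ± 280 and 611 ± 63.6 in HaCaT. CCL20, which draws dendritic cells and lymphocytes, held 122 ± 43.7 in untreated TIGK and 4.83 ± 1.55 in untreated HaCaT. CXCL6, a gene of the CXCL8 cluster, had 0 reads in all TIGK libraries and 42.5 ± 16.9 normalized counts in untreated HaCaT, at least 13.7 times the floor of 3 counts per library. Of 12 other keratinocyte cytokines tested, 1 rose and 1 fell in TIGK, where 23.2% of all genes were called. In HaCaT 1 rose and 2 fell, where 34.1% were called. With DESeq2 on all libraries, 2 rather than 1 rose in each line. TNFSF9, a ligand of the TNF family, rose in both lines (log2 fold change 1.18 in TIGK, SE 0.147, adjusted p = 5.54e-06, and 1.49 in HaCaT, SE 0.114, adjusted p = 1.08e-08). CSF1 fell in TIGK (-1.07, SE 0.236, adjusted p = 0.00171, and 0.0117 or 0.0145 without untreated TIGK replicate 1 or treated TIGK replicate 2). IL24 and IL11 fell in HaCaT, both lost without untreated HaCaT replicate 3 (adjusted p = 0.0189 and 0.0185), IL24 also without treated HaCaT replicate 1 (adjusted p = 0.0121).

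The signalling genes downstream of the IL-1 and TNF receptors moved in both directions. Of 19 tested, 3 rose and 3 fell in TIGK and 4 rose and 5 fell in HaCaT, beside 23.2% and 34.1% of all genes called. The 4 that rose in HaCaT became 2 in the fits on the HaCaT groups alone, with upper-quartile factors and without any 1 of 6 libraries. The calls had log2 fold changes from -0.48 (RIPK1 in HaCaT) to 0.56 (TRADD in HaCaT). The responses of TRAF2 differed by -0.44 (SE 0.0877, adjusted p = 0.00271), a call lost on leaving out any 1 of 4 of the libraries (adjusted p up to 0.031). At rest, 11 of the 19 were higher in HaCaT and 2 lower, where 59.9% of all genes were called (29.1% higher and 30.8% lower). The 2 lower became 4 with upper-quartile factors or with library totals alone. IRAK3, a brake on IL-1 receptor signalling, held 785 ± 101 normalized counts in untreated TIGK and 1.53 ± 2.65 in untreated HaCaT, while MYD88, the adaptor of that receptor, was higher in HaCaT by 1.31 on the log2 scale (SE 0.0754, adjusted p = 1.16e-11).

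The genes whose pattern over the 12 libraries was most like that of a member were found by the smallest root mean square difference of centred log2 CPM among 11766 genes with a mean of at least 100 normalized counts. For IL1A these were PMAIP1 (0.107), NCOA7 (0.124) and NSL1 (0.137), and for IL1RN they were WWTR1 (0.127), KIAA1217 (0.157) and CD55 (0.158). For IL1B they were MGLL (0.119), SRR (0.125) and MRRF (0.126), which like it separated the lines. The nearest gene to a chemokine lay further off, at 0.373 for CXCL1 (AC124798.1), 0.330 for CXCL2 (GATM), 0.302 for CXCL3 (GPR161) and 0.309 for CXCL8 (TBC1D9). These differences were not scaled by the spread of each gene, so a larger one need not mean a less similar pattern. PMAIP1, which encodes the BH3-only protein Noxa, held means of 1700 and 2546 in TIGK and 1137 and 2632 in HaCaT, untreated and treated.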

How the data were processed

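Polyadenylated RNA of untreated and H2O2-treated TIGK and HaCaT was sequenced as 2 × 150 bp reads, with 3 libraries per group. The authors deposited raw read counts per gene, made with FeatureCounts 1.5.0-p3 from reads mapped to GRCh38 with Hisat2 2.0.5, per the study's methods, while the submitters' notes also name Hisat2 2.0.0. Gene lengths in the table were used as deposited. The annotation release and the treatment of multiply mapped reads are not given in the sources used here. The treatment tag of the labels writes the peroxide differently for each replicate, and H2O2 was taken from the treatment protocol. The deposited fold changes and p-values of the authors' comparisons were not used.

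Genes whose raw counts averaged 10 or more entered the quasi-likelihood test of edgeR 4.0.16 in R 4.3.3 (TMM, 1 mean per group, all 12 libraries), with Benjamini-Hochberg adjustment over 16618 genes and a limit of 0.01. The steps were tested on simulated counts. Alternatives were DESeq2 1.42.0, fits on the groups compared, other scalings, filters and limits, a replicate block and leaving out each library. The floor of 3 counts per library covers counting error only. The SE values come from the fit and include the estimated spread between replicates. Promoter windows (GRCh38.p14) came from RefSeq, with all 10 genes matched. Pairwise global alignments scored 1 for a match, -1 for a mismatch, -2 to open and -0.5 to extend a gap. The members and lists were chosen with earlier results of these data known. From each list, up to 3 genes per direction with the largest fold change were eligible to be named if their groups did not overlap and the higher group had a mean of at least 30 normalized counts, all receptors being named.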

Additional observations from a re-analysis of the deposited data

Results flagged for a closer look

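The response to H2O2 differed between the lines, by the test of the difference itself (TIGK minus HaCaT, edgeR, 3 libraries per group), for 2 of the cytokine genes. CXCL1 differed by -2.20 on the log2 scale, with all 3 treated libraries below the untreated ones in TIGK and all 3 above them in HaCaT. CXCL8 differed by -1.61, with all 3 treated libraries above the untreated ones in HaCaT and overlapping groups in TIGK.

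The same test passed for 7 named genes of the related lists. The differences were 2.59 for IL36RN, -2.81 for TNFRSF1B, -0.44 for TRAF2, 1.53 for ZC3H12A, 0.85 for ZFP36L1, 0.63 for ZFP36L2 and -0.85 for ZFP36.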

How the results depend on the processing

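Of 25 calls among the cytokine genes in the 5 comparisons, 22 held in each alternative in which the gene was tested, other than the limit with a fold change (IL36G and IL6 were not tested with a minimum mean of 50), and the 3 that did not (CXCL3 in TIGK, IL36G between the untreated lines and IL6 between the treated lines) are given with their values in the report. The number of genes upregulated in TIGK was 2 instead of 1 with DESeq2 or edgeR on these groups alone and with the limit of 0.05, IL6 being the gene gained. Requiring a log2 fold change over 1 as well gave 0 upregulated and 1 downregulated in TIGK, 0 downregulated in HaCaT and 3 lower in untreated HaCaT, by construction. A minimum mean of 50 left 2 lower in HaCaT after H2O2, by that construction. With library totals alone IL1A was gained there (adjusted p = 0.00927). Leaving out 1 library, the count stayed at 1 higher and 2 to 3 lower in TIGK and at 3 higher and 1 lower in HaCaT. CXCL1 and CXCL8 kept their difference of responses in every alternative, at -2.31 to -2.07 and -1.77 to -1.40, and that of CXCL3 passed with DESeq2 on all libraries (adjusted p = 0.00639), without the filter (5.86e-04) and without untreated TIGK replicate 3 (0.00934) or treated HaCaT replicate 3 (0.00577).

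Changes of sign met only differences that were not called, and their cause was not tested. Over the fits that left out 1 library, the log2 value ran from -0.518 to 0.249 for the response of CXCL2 in HaCaT, from -0.228 to 0.235 for CXCL3 between the untreated lines, from -0.315 to 0.452 for the difference of the CXCL2 responses and from -0.265 to 0.935 for that of the IL6 responses. Without the filter, the difference of the CXCL2 responses was 0.0111.

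Libraries with the same number did not deviate together (correlations from -0.0319 to 0.0257), so the numbers were not read as pairs. With the replicate block, 2 rather than 3 genes were lower in TIGK, the call of CXCL3 being lost (adjusted p = 0.0105), and 4 rather than 5 were lower in untreated HaCaT, that of IL36G being lost (adjusted p = 0.014), while the block changed no other call among the cytokine genes. Depth limits TNF, IL6, IL36G and, in HaCaT, CXCL2. Other scalings moved the median of all genes by at most 0.08 on the log2 scale. All of these scalings use the counts themselves, so they cannot show a change in total RNA per cell. Such a change was not tested, and rises and falls are relative to the RNA of a library.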
